A study of Mus musculus with 53 samples.

Results

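The cytosolic ribosomal protein genes encode the protein parts of the ribosome that translates nuclear-encoded messages. They were taken as the genes of the RNA tables whose symbol is Rpl or Rps followed by digits and at most a final a or x, together with Rplp0, Rplp1, Rplp2, Rpsa and Rps3a1, and no form marked ps, l or k was taken. This rule used names and no measured value, and it gave 77 of the 43432 genes of each table, 46 of the large (60S) and 31 of the small (40S) ribosomal subunit. All 77 passed the filter on low values in both tables. RNA was measured in mouse embryonic fibroblasts (MEFs), connective tissue cells grown from embryos, that were either ANP32E-KO, lacking the histone chaperone that removes the histone variant H2A.Z from chromatin, or wild type (WT). One table covers cells given decitabine (DAC), which blocks DNA methyltransferases, or its vehicle DMSO, as 3 KO DAC, 3 WT DAC, 2 KO DMSO and 2 WT DMSO libraries. The other covers cells given an siRNA against H2A.Z (H2AZ) or the control siRNA named NT, as 3 libraries each of KO H2AZ, WT H2AZ, KO NT and WT NT. No source used here gives the dose and time of either treatment, the embryo age, the strain, or whether the KO cells were 1 clone or several cultures.

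A ribosome carries one copy of nearly every ribosomal protein, so the genes of both subunits are usually expressed together, and in fibroblasts they are among the most abundant messages. Many of their messages begin with a C followed by a run of pyrimidines, the 5′ terminal oligopyrimidine (TOP) tract, through which the growth-sensing kinase mTOR and the RNA-binding protein LARP1 control their translation. Proteins made in excess over their partners are degraded, and free Rpl5 and Rpl11, bound to the 5S ribosomal RNA, inhibit the p53 ubiquitin ligase Mdm2.

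Start sites were found in the RefSeq promoter table (GRCm38.p6) for 57 of the 77 genes, at 67 starts. A tract of C and at least 4 further pyrimidines began within 5 bases of the annotated start at 29 of the 67 starts (43.3%), against 18.3% of all 32851 starts of the table. It began exactly at the start at 19.4% of the members' starts and at 2.51% of all starts. The following windows of 50 bases, 30 before and 20 from the start onward, show that tract in capitals for 6 genes named below because they stood at the ends of the KO against WT or H2AZ siRNA comparisons or are tied to the mTOR pathway.
Rps24 promoter, chr14:24490648-24490697, plus strand: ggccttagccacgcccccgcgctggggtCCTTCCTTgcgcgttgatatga
Rps6 promoter, chr4:86857348-86857397, minus strand: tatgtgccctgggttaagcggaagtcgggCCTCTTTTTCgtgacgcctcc
Rps10 promoter, chr17:27635225-27635274, minus strand: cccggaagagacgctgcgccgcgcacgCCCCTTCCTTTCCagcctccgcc
Rps2 promoter, chr17:24720033-24720082, plus strand: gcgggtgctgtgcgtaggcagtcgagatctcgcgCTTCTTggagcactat
Rpl38 promoter, chr11:114668550-114668599, plus strand: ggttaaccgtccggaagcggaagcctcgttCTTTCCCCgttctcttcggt
Rpl13a promoter, chr7:45128726-45128775, minus strand: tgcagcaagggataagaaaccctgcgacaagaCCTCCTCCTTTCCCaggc

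Motifs were searched as letters on both strands of the 300-base windows (250 before and 50 from the start onward). CTCGCGA, whose last letters overlap with its own reverse complement in CTCGCGAG, was in 15 of the 67 windows (22.4%), from 14 members, against 1.93% of all windows. CCGGAA was in 49.3% of the members' windows and 14.9% of all, GGGCGG in 61.2% and 35.7%, GATGGC in 25.4% and 14.1%, and TATAAA in 8.96% and 13.6%. These are matches of letters only. The next windows show CTCGCGA or its reverse complement in capitals for Rps3a1 and for 3 others named below.
Rps3a1 promoter, chr3:86142649-86142698, minus strand: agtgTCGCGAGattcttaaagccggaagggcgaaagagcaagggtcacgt
Rps28 promoter, chr17:33824543-33824592, minus strand: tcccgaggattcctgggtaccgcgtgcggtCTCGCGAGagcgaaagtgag
Rps19 promoter, chr7:24884562-24884611, plus strand: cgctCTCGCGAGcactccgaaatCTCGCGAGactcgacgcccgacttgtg
Rpl27a promoter, chr7:109519165-109519214, plus strand: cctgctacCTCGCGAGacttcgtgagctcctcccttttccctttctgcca

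Whole reads recovered from the steps of the values gave 27503472 to 36910532 reads for each DAC or DMSO library and 31928320 to 47172427 for each siRNA library. The lowest member reading was 29 reads among DAC and DMSO libraries and 1188 among siRNA libraries, so counting error was small for nearly all members. The targeted genes matched the labels. Anp32e had 4.87 to 7.48 FPKM in KO and 14.0 to 17.2 FPKM in WT libraries with DAC or DMSO, and 4.36 to 6.12 RPKM in KO and 16.9 to 21.4 RPKM in WT siRNA libraries. H2afz, the main H2A.Z gene, had 26.4 to 30.4 RPKM in KO H2AZ and 16.6 to 17.5 RPKM in WT H2AZ, against 184 to 203 RPKM in the NT libraries. Of 10 fibroblast markers 8 or 9 were at 1 or more in each group. Their sum was 1769 to 1953 FPKM in KO DAC, 2161 to 2296 in WT DAC, 1865 to 1905 in KO DMSO and 3265 to 3387 in WT DMSO, and 1082 to 1287 RPKM over all siRNA libraries. The sum of 5 epithelial markers was 16.5 to 19.96 FPKM in KO DAC, 5.65 to 9.24 in WT DAC, 26.2 to 28.3 in KO DMSO and 0.663 to 1.31 in WT DMSO, and 29.5 to 36.7 RPKM in KO against 3.31 to 4.19 RPKM in WT siRNA libraries. All 7 markers of mesothelium, the lining of body cavities, were at 1 or more in the KO groups and 2 of 7 in the WT groups, where Wt1 and Upk1b were at 0 with either siRNA. Their summed level was 84.0 to 100 FPKM in KO DAC, 34.3 to 47.3 in WT DAC, 720 to 755 in KO DMSO and 7.46 to 10.03 in WT DMSO, and 137 to 160 RPKM in KO against 18.3 to 20.2 RPKM in WT siRNA libraries. Xist, the RNA of the inactive X chromosome, was at 0 to 0.00144 RPKM in KO and 4.12 to 6.33 RPKM in WT siRNA libraries. The part of these markers and of Xist in the KO against WT and DAC results was not tested. KO DAC replicate 1 and WT DAC replicate 3 stood apart in many members, and the DAC results are given with and without them. They were picked on the members' own values, so the counts without them describe these data and are no separate test.

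The members' levels differed widely from gene to gene, although each encodes a part of the same particle. The mean over libraries had a median of 89.8 FPKM with DAC and DMSO, and ran over a 48.1-fold range in the siRNA libraries, with a median of 320 RPKM. Both units are divided by the gene length used in the scaling, which was 255 bases for Rps27 and 6262 for Rps15a. Ranks within a table therefore depend on those lengths. In KO H2AZ replicate 1, Rps27 had 14458 reads and 1347 RPKM, and Rps15a had 13430 reads and 50.9 RPKM. In the DAC table the stalk base Rplp0 (540 FPKM), the laminin receptor homologue Rpsa (431), Rps26 (400) and Rps2 (391) were among the highest, and the lowest were Rpl11 (8.57 FPKM), Rps15a (8.26), Rpl18 (5.35), Rpl36a (4.77) and Rpl24 (1.65). In the siRNA table Rps12 of the 40S beak (2084 RPKM), the stalk protein Rplp1 (1955), Rps26 (1602), Rplp0 (1213) and Rps27 (1167) were highest, and Rpl35a (90.7), Rps19 (81.5), Rpl22 (78.7), Rps15a (48.0) and Rpl24 (43.4) were lowest. Rps26 and Rplp0 were thus in the top 5 and Rps15a and Rpl24 in the bottom 5 of both tables. Of the 100 highest genes 8 were members by FPKM and 12 by RPKM, and of the 500 highest 43 and 64.

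**Figure D1:**
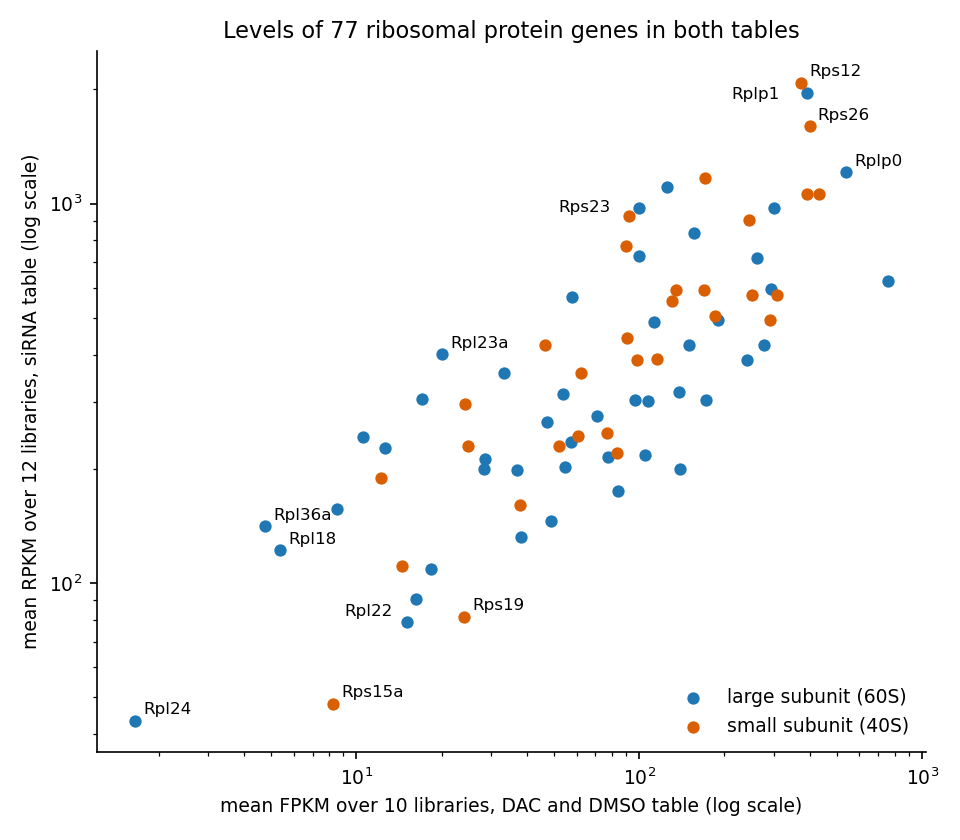
Mean level of each of the 77 ribosomal protein genes in the DAC and DMSO table (FPKM, horizontal log axis) and in the siRNA table (RPKM, vertical log axis), coloured by subunit. Rpl24 is lowest in both tables at 1.65 FPKM and 43.4 RPKM, and Rps26 and Rplp0 lie near the upper end of both axes.

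The tables were normalised separately, so the members' levels in them are set beside each other as a description. Across the 77 members the log2 levels of both tables had a Pearson correlation of 0.80 and a Spearman correlation of 0.81. Across the 11108 genes at 1 or more in both tables the values were 0.65 and 0.61. The siRNA table gave a median of 4.26 times the value of the DAC table for members, and 0.838 times for the 11108 genes. The ratio was 2.25 for Rplp0 and 29.6 for Rpl36a, so the members did not differ between the tables by one common factor. Values assigned to 257 annotated pseudogenes of these genes summed to 13.4 to 16.2% of the members' sum in DAC and DMSO libraries and to 64.6 to 67.9% in siRNA libraries. No source used here says how reads matching several copies were counted, so a member and a near-identical pseudogene cannot be told apart with certainty.

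The family's share of all gene reads overlapped between the genotypes and was higher with the H2AZ siRNA. The members took 5.011, 4.924 and 4.835% of gene reads in KO H2AZ, 5.003, 4.944 and 4.993% in WT H2AZ, 4.523, 4.489 and 4.672% in KO NT and 4.371, 4.717 and 4.714% in WT NT libraries. Each H2AZ library was above each NT library, while the KO and WT libraries of one siRNA overlapped. Per gene length the picture differed: the members' part of the summed RPKM of all genes was 2.61 to 2.86% in KO H2AZ, 3.21 to 3.48% in WT H2AZ, 2.44 to 2.77% in KO NT and 3.13 to 3.15% in WT NT libraries. On that scale KO was below WT with either siRNA, and KO H2AZ and KO NT overlapped. Reads of the short 7SL RNA genes made up 10.3 to 12.6% in KO and 7.91 to 9.06% in WT siRNA libraries. In the DAC table the shares were 1.299, 1.458 and 1.436% in KO DAC, 1.426, 1.434 and 1.188% in WT DAC, 1.190 and 1.219% in KO DMSO and 1.265 and 1.213% in WT DMSO. There the KO DAC libraries were all above the KO DMSO libraries, and WT DAC replicate 3 was below both WT DMSO libraries. The widest 95% Wilson interval of a share was 0.00772 percentage points to either side, which covers counting error only. In bulk RNA, fewer cells of a type and less RNA per cell cannot be told apart.

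**Figure D2:**
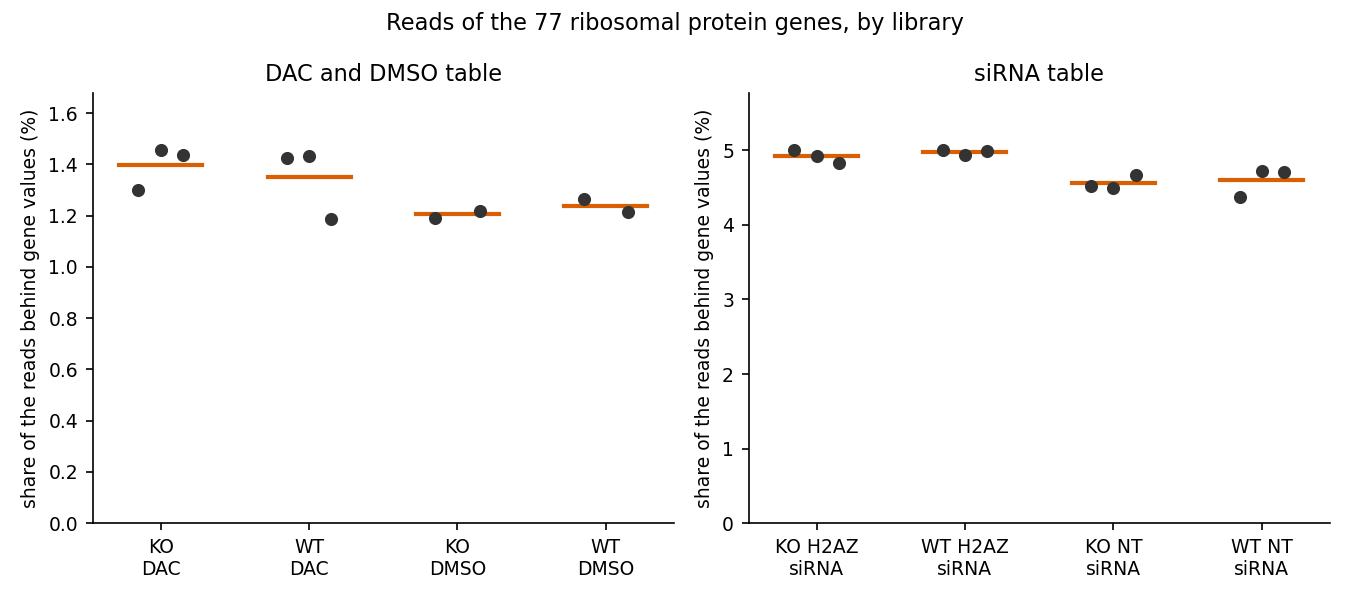
Share of gene reads (%, vertical axis from 0) taken by the 77 ribosomal protein genes in each library (points) of the DAC and DMSO table (left) and the siRNA table (right), with the group mean as a bar. All 6 H2AZ siRNA libraries lie between 4.835 and 5.011%, above the 6 NT libraries at 4.371 to 4.717%.

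Between KO and WT cells of the siRNA table, single members differed in both directions. In the H2AZ libraries 19 of 77 members were higher in KO and 22 were lower (limma, adjusted p under 0.05), where 20.2% of all 12668 genes tested were higher and 42.7% lower. In the NT libraries 18 were higher and 26 lower, where 23.7% of all genes were higher and 40.4% lower. The shares of members called higher, 24.7% and 23.4%, were near those of all genes, and the shares called lower, 28.6% and 33.8%, were below them. The split depended on the scaling, as the counts below show, so it is not read as a result about the family as a whole. The median log2 fold change of the members was -0.01 (H2AZ) and -0.03 (NT), beside -0.12 and -0.10 over all genes. Centring each library on its median moved the median of all genes by 0.15 and 0.12, and the split of members became 33 higher and 10 lower in H2AZ libraries and 26 and 10 in NT libraries (all genes 33.8% higher and 28.7% lower, and 33.8% and 29.8%). Scaling each library by its trimmed mean ratio to the others gave 37 and 10, and 28 and 10 (all genes 32.1% and 30.9%, and 31.9% and 32.1%). The KO and WT libraries behind the H2AZ and NT comparisons are separate, and 16 members were higher in both, 84.2% of those of the first and 88.9% of those of the second. Of the lower members 21 were shared, 95.5% and 80.8%, and no member was called in opposite directions. The overlap was not counted over all genes, so it is no result about the family.

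**Figure D3:**
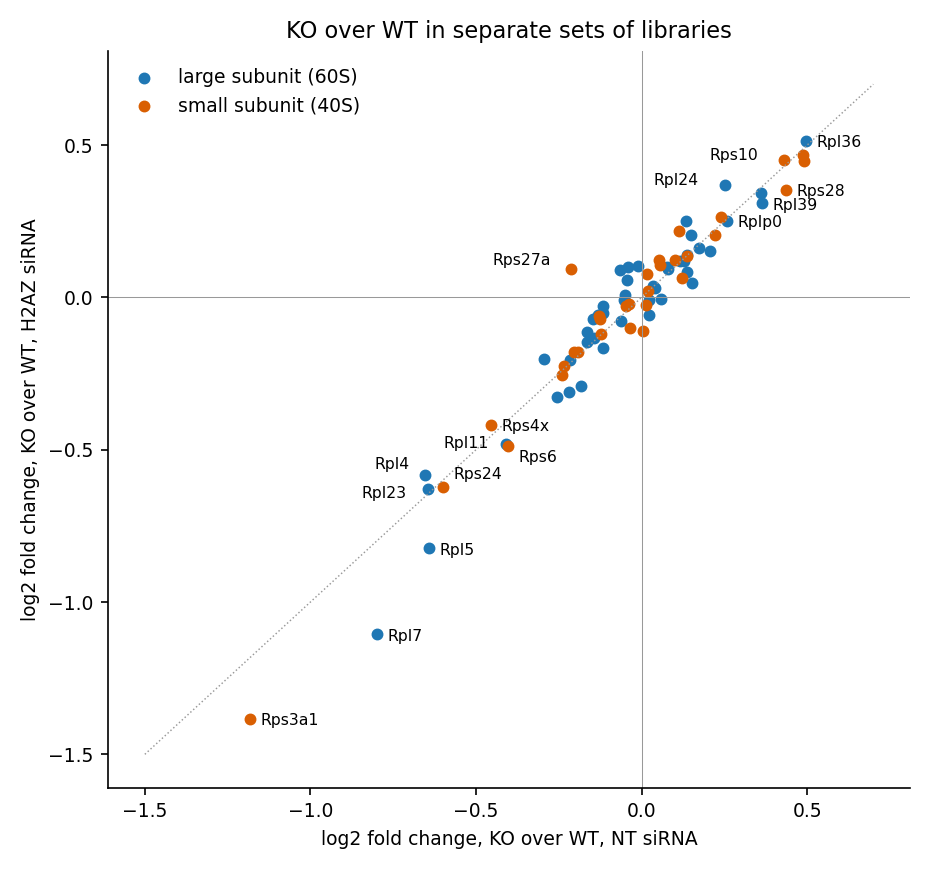
Log2 fold change of KO over WT for each of the 77 genes with the NT siRNA (horizontal axis) and with the H2AZ siRNA (vertical axis), coloured by subunit, with the line of equal values dotted. Rps3a1 (-1.18 and -1.38) and Rpl7 (-0.80 and -1.11) lie furthest below 0, and Rpl36 (0.50 and 0.51) lies at the upper end.

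Rps3a1, a core protein of the 40S subunit, had the lowest KO over WT value with either siRNA. It stood at 287, 320 and 366 RPKM in KO H2AZ against 881, 810 and 846 RPKM in WT H2AZ libraries, and at 366, 263 and 409 RPKM in KO NT against 751, 780 and 792 RPKM in WT NT libraries. The KO libraries were all below the WT libraries, with log2 fold changes of -1.38 ± 0.13 (SE, limma, adjusted p = 5.5e-06) and -1.18 ± 0.13 (adjusted p = 1.7e-05). RefSeq lists Rps3a2 and Rps3a3 as pseudogenes of related name, and reads were assigned to both. Rps3a3 went the other way, at 309, 356 and 402 RPKM in KO H2AZ against 165, 152 and 162 RPKM in WT H2AZ libraries, while Rps3a2 was at 349 to 442 RPKM in KO H2AZ and 443 to 481 RPKM in WT H2AZ libraries. The reads of all 3 together came to 971 RPM (reads scaled to a common library total) in KO H2AZ against 1386 RPM in WT H2AZ libraries, a log2 difference of -0.51 in place of -1.36 for Rps3a1 alone, and to -0.30 in place of -1.14 with NT. In the DAC table the direction turned: the log2 difference of Rps3a1 reads was -0.47 with DAC and -0.31 with DMSO, and of the 3 together 0.32 and 0.49. These genes were added to Rps3a1 after their values were seen, and the Rps3a1 result is uncertain for this reason.

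Several large-subunit proteins were also lower in KO. Rpl7 stood at 114, 136 and 154 RPKM in KO H2AZ against 302, 276 and 287 RPKM in WT H2AZ libraries, and at 180, 107 and 211 RPKM in KO NT against 274, 274 and 288 RPKM in WT NT libraries. The groups did not overlap, with log2 fold changes of -1.11 ± 0.19 (adjusted p = 0.0004) and -0.80 ± 0.19 (adjusted p = 0.0034). KO NT replicate 2 was the lowest of the KO NT libraries for Rpl7, Rps3a1 and Rpl5. Both protein partners of the 5S RNA were lower: Rpl5 had 137, 144 and 165 RPKM in KO H2AZ against 271, 254 and 265 RPKM in WT H2AZ libraries (log2 fold change -0.82 ± 0.12, adjusted p = 0.00015), and -0.64 with NT (adjusted p = 0.00085). Rpl11 had 132, 133 and 136 RPKM in KO H2AZ against 189, 184 and 187 RPKM in WT H2AZ libraries, with log2 fold changes of -0.48 (adjusted p = 0.0001) and -0.41 with NT (adjusted p = 0.00032). Rpl4 and Rpl23, which line the exit tunnel and the subunit interface, were lower too, with log2 fold changes of -0.58 and -0.63 with H2AZ and -0.65 and -0.64 with NT.

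Among the other 40S members Rps24, needed for processing of the 18S rRNA precursor, stood at 480, 451 and 484 RPKM in KO H2AZ against 767, 707 and 708 RPKM in WT H2AZ libraries. Its log2 fold change was -0.62 ± 0.08 (adjusted p = 3.3e-05), and -0.60 ± 0.08 with NT (adjusted p = 4e-05). Rps6, the substrate of S6 kinase in the mTOR pathway, was also lower, with log2 fold changes of -0.49 and -0.40. Rps12 in the beak of the subunit fell by 0.18 (adjusted p = 0.0068) in KO H2AZ and by 0.19 (adjusted p = 0.0046) in KO NT libraries.

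The members higher in KO differed by less, up to about 1.4-fold. Rpl36, a small protein of the 60S subunit, had 607, 586 and 558 RPKM in KO H2AZ against 392, 419 and 414 RPKM in WT H2AZ libraries. With NT it had 558, 572 and 595 RPKM in KO against 387, 416 and 419 RPKM in WT libraries. The groups did not overlap, and the log2 fold changes were 0.51 ± 0.05 (adjusted p = 5e-06) and 0.50 ± 0.05 (adjusted p = 6.1e-06). Rps2 at the mRNA entry channel had 1259, 1318 and 1260 RPKM in KO H2AZ against 920, 935 and 916 RPKM in WT H2AZ libraries (log2 fold change 0.47 ± 0.05, adjusted p = 2.1e-05). Rps10, in the 40S head, had a log2 fold change of 0.45 with H2AZ and 0.43 with NT. Rps14 on the 40S platform had 0.45 and 0.49, and Rps28 near the mRNA exit had 0.35 and 0.44. Rpl24, the least abundant member, had 47.9, 50.9 and 48.6 RPKM in KO H2AZ against 37.9, 39.3 and 36.1 RPKM in WT H2AZ libraries (0.37 ± 0.09, adjusted p = 0.0029).

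The acidic stalk, which recruits the elongation factors, was higher in KO in part. Rplp0 had 1400, 1395 and 1357 RPKM in KO H2AZ against 1151, 1170 and 1167 RPKM in WT H2AZ libraries, without overlap (log2 fold change 0.25 ± 0.04, adjusted p = 0.00039), and 0.26 with NT. Rplp2 was higher by 0.16 and 0.17. Rplp1 (0.04 and 0.03) and Rpl12 (0.12 and 0.13) did not pass the test. Of the 4 X-linked members, Rps4x had 305, 316 and 329 RPKM in KO H2AZ against 435, 405 and 432 RPKM in WT H2AZ libraries (-0.42 ± 0.06, adjusted p = 8.7e-05) and a log2 fold change of -0.46 with NT. Rpl39 of the exit tunnel was higher by 0.31 and 0.37, while Rpl10 (0.10 and 0.08) and Rpl36a (0.06 and -0.04) did not pass the test. X-linked members therefore had calls in both directions.

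**Figure D4:**
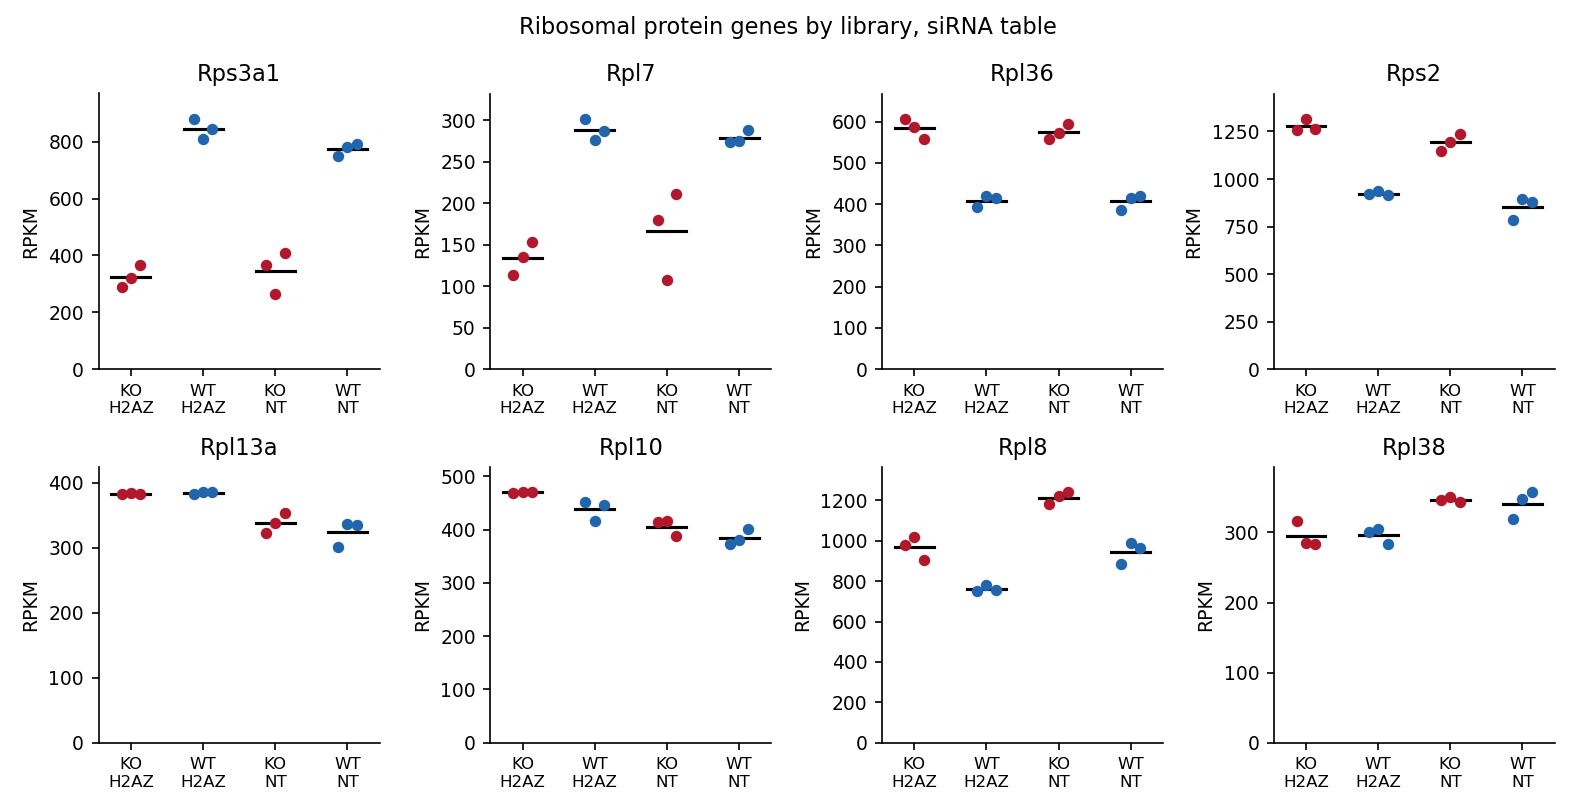
Level (RPKM, vertical axes from 0) of 8 ribosomal protein genes in each siRNA library, with KO libraries in red, WT libraries in blue and group means as bars. Rps3a1 and Rpl7 are lower in every KO library, Rpl36 and Rps2 higher in every KO library, and Rpl8 and Rpl38 are lower with the H2AZ siRNA than with NT in both genotypes.

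In the DAC table fewer members were called between the genotypes, in a fit whose spread is shared by all 4 groups. With DAC 3 members were higher in KO and 2 lower, where 11.1% of all 16434 genes tested were higher and 11.6% lower. With DMSO 3 were higher and 8 lower, where 19.6% of all genes were higher and 22.9% lower. The members' shares lay below those of all genes in both comparisons, and their medians were -0.01 and -0.09 beside -0.00 and -0.04 over all genes. Without KO DAC replicate 1 and WT DAC replicate 3 the counts became 6 higher and 17 lower with DAC, and 12 and 27 with DMSO (all genes 11.3% and 13.5%, and 23.4% and 28.2%). WT DAC replicate 3 alone accounted for part of the change with DAC, since without it 2 members were higher and 13 lower (all genes 10.7% and 13.1%). Neither library is in the DMSO groups, where the members' median stayed at -0.09 without both. They enter the DMSO comparison only through the shared fit and its filter. With only the DMSO groups fitted, 10 members were higher and 23 lower (all genes 21.9% and 25.8%).

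With DMSO the called members included Rpl41, the shortest ribosomal protein, at 213 and 208 FPKM in KO against 353 and 360 FPKM in WT libraries (log2 fold change -0.76 ± 0.17, adjusted p = 0.0074). Rps26, near the mRNA exit, stood at 310 and 299 FPKM in KO against 454 and 443 FPKM in WT (-0.56 ± 0.08, adjusted p = 0.00049), and Rps12 at 259 and 273 FPKM in KO against 391 and 392 FPKM in WT (-0.56 ± 0.14, adjusted p = 0.011). Neither gene's KO and WT values overlapped. Rpl10, a late-joining protein at the peptidyl transferase centre, was lower as well (-0.41, adjusted p = 0.0014). Rpl5 was higher, at 64.3 and 64.8 FPKM in KO against 48.4 and 44.9 FPKM in WT (0.46 ± 0.09, adjusted p = 0.0039). With DAC, Rps3a1 (-0.47, adjusted p = 0.011) and Rpl24 (-0.46, adjusted p = 0.01) were lower, and Rpl14 (0.32, adjusted p = 0.015) and Rpsa (0.26, adjusted p = 0.022) were higher.

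The genotype differences of single members were not the same in the DAC and siRNA tables. Over the 4 KO against WT comparisons 9 members were below 0 in all, among them Rpl11, Rpl13, Rpl21, Rpl27a, Rps15a, Rps23, Rps24 and Rps3a1. A further 6 were above 0 in all, namely Rpl12, Rpl27, Rpl32, Rplp0, Rps10 and Rps3, and 62 had mixed signs. None was called in the same direction in all 4, and Rps3a1 and Rps12 were called lower in 3. Calls in opposite directions were found for 6 members: Rpl14, Rpl24, Rpl41, Rpl5, Rpl6 and Rps29. These signs and calls were not counted over all genes, so the counts are no result about the family. Rpl24 had KO over WT values of -0.46 (DAC), -0.42 (DMSO), 0.37 (H2AZ) and 0.25 (NT), and Rpl5 had 0.46 with DMSO, -0.82 with H2AZ and -0.64 with NT. The group means of Rpl24 were only 1.02 to 2.45 FPKM in the DAC table. Its DAC and DMSO values are therefore understated on the log2 of value plus 1 scale, and their sizes cannot be set against the siRNA ones.

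With the H2AZ siRNA a larger share of members than of all genes was called higher than with NT, by small amounts. In KO libraries 24 of 77 were higher and 2 lower, where 6.56% of all genes were higher and 19% lower. In WT libraries 15 were higher and 2 lower, where 4.88% of all genes were higher and 10.4% lower. The members' shares called higher were 31.2% in KO and 19.5% in WT, and their median log2 fold changes were 0.12 and 0.11, beside -0.06 and -0.03 over all genes. The sign was positive for 71 members in KO and 73 in WT, and 73 and 75 members lay within 0.25 of the members' median. Both subunits took part, with 11 of 46 large- and 13 of 31 small-subunit members higher in KO, and 5 of 46 and 10 of 31 in WT. The share called higher was thus larger for the small subunit, and the difference between subunits was not tested. Median centring gave 37 higher and 0 lower in KO and 13 and 0 in WT (all genes 15.9% and 10.8%, and 10.3% and 6.93%), and trimmed-mean scaling gave 38 and 1, and 13 and 1 (all genes 14% and 13.5%, and 8.3% and 8.64%). The WT count fell whichever WT library was left out: to 2 higher and 1 lower without WT H2AZ replicate 1 or replicate 3, 5 and 1 without replicate 2, 3 and 2 without WT NT replicate 1, 7 and 1 without replicate 2 and 9 and 1 without replicate 3. The WT median was 0.06 without WT NT replicate 1 and 0.10 to 0.14 without any other WT library. KO NT replicate 1 and WT NT replicate 1 stood apart in the siRNA table. Without both, 25 members were higher and 2 lower in KO (median 0.10, all genes -0.02), and 4 and 2 in WT (median 0.06, all genes -0.01). The KO count was 6 and 2 without KO H2AZ replicate 1. The shares of all genes called in these fits with libraries left out are not given here, so these counts are no result about the family.

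The KO and WT responses to the H2AZ siRNA came from separate libraries. They shared 10 members called higher, 41.7% of those in KO and 66.7% of those in WT: Rpl10, Rpl13a, Rpl27a, Rplp0, Rps12, Rps18, Rps20, Rps23, Rps27 and Rps3. This overlap was not counted over all genes either. For the difference of the 2 responses no member was called and none had an unadjusted p under 0.05 (limma), where 0.00789% of all genes were called higher and 0% lower. Median centring and trimmed-mean scaling also called 0 members. Rpl13a, which in human monocytes leaves the ribosome to silence inflammatory messages, had 383, 384 and 382 RPKM in KO H2AZ against 322, 338 and 353 RPKM in KO NT libraries, and 383, 385 and 386 RPKM in WT H2AZ against 301, 336 and 335 RPKM in WT NT libraries. The H2AZ libraries were all above the NT libraries, and the WT log2 fold change was 0.25 ± 0.05 (adjusted p = 0.0065). Rpl27a, whose promoter is shown above, had 253, 237 and 239 RPKM in KO H2AZ against 205, 186 and 212 RPKM in KO NT libraries (0.27 ± 0.05, adjusted p = 0.0038). Rps27a, made as a fusion with ubiquitin, had the highest value in KO, 0.37 ± 0.10 (adjusted p = 0.024), with 250, 196 and 186 RPKM in KO H2AZ against 172, 173 and 142 RPKM in KO NT libraries. KO H2AZ replicate 1 was the highest of these. In WT its value was 0.06 (adjusted p = 0.74).

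Rpl8 and Rpl38 were the 2 members called lower, in both genotypes. Rpl8, which lies near the peptidyl transferase centre, had 980, 1021 and 905 RPKM in KO H2AZ against 1179, 1221 and 1241 RPKM in KO NT libraries, and 751, 780 and 757 RPKM in WT H2AZ against 885, 991 and 963 RPKM in WT NT libraries. The H2AZ libraries were all below the NT libraries of their genotype, with log2 fold changes of -0.33 ± 0.06 (adjusted p = 0.0016) in KO and -0.31 ± 0.06 (adjusted p = 0.0038) in WT. Rpl38, which in mouse embryos is required for translation of Hox messages, had 316, 285 and 283 RPKM in KO H2AZ against 346, 350 and 343 RPKM in KO NT libraries (-0.23 ± 0.06, adjusted p = 0.011). In WT it had 301, 304 and 284 RPKM with H2AZ against 318, 347 and 358 RPKM with NT (-0.20 ± 0.06, adjusted p = 0.031). Rpl8 was no longer called after median centring (adjusted p = 0.061 in KO and 0.068 in WT), and Rpl38 neither after centring nor after trimmed-mean scaling.

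Of 157 annotated pseudogenes tested, 41 were higher and 1 lower with the H2AZ siRNA in KO, and 24 higher and 0 lower in WT, with medians of 0.13 and 0.12. Of all genes 6.56% and 4.88% were higher, and most pseudogenes did not pass the test. The mitochondrial ribosomal protein genes, which build the separate ribosome inside mitochondria, had calls mostly in the other direction. Of 76 tested, 2 were higher and 21 lower in KO (median -0.11), and 2 higher and 18 lower in WT (median -0.09). The 2 lowest were Mrps36 (-0.57 in KO and -0.49 in WT) and Mrpl20 (-0.50 and -0.42). Their shares called lower, set beside 19% and 10.4% of all genes, were above the background. Median centring left 5 higher and 10 lower in KO (median -0.02), and 3 and 11 in WT (median -0.03), where 10.8% and 6.93% of all genes were lower. The KO count was then near the background, while the WT count stayed above it and both medians stayed below 0. Trimmed-mean scaling left 5 higher and 12 lower in KO (median -0.04), and 3 and 13 in WT (median -0.05). Of all genes 13.5% and 8.64% were then lower. The excess of lower calls in KO thus depends on the scaling. This comparison family was chosen after values were available, and the difference between the families was not tested.

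**Figure D5:**
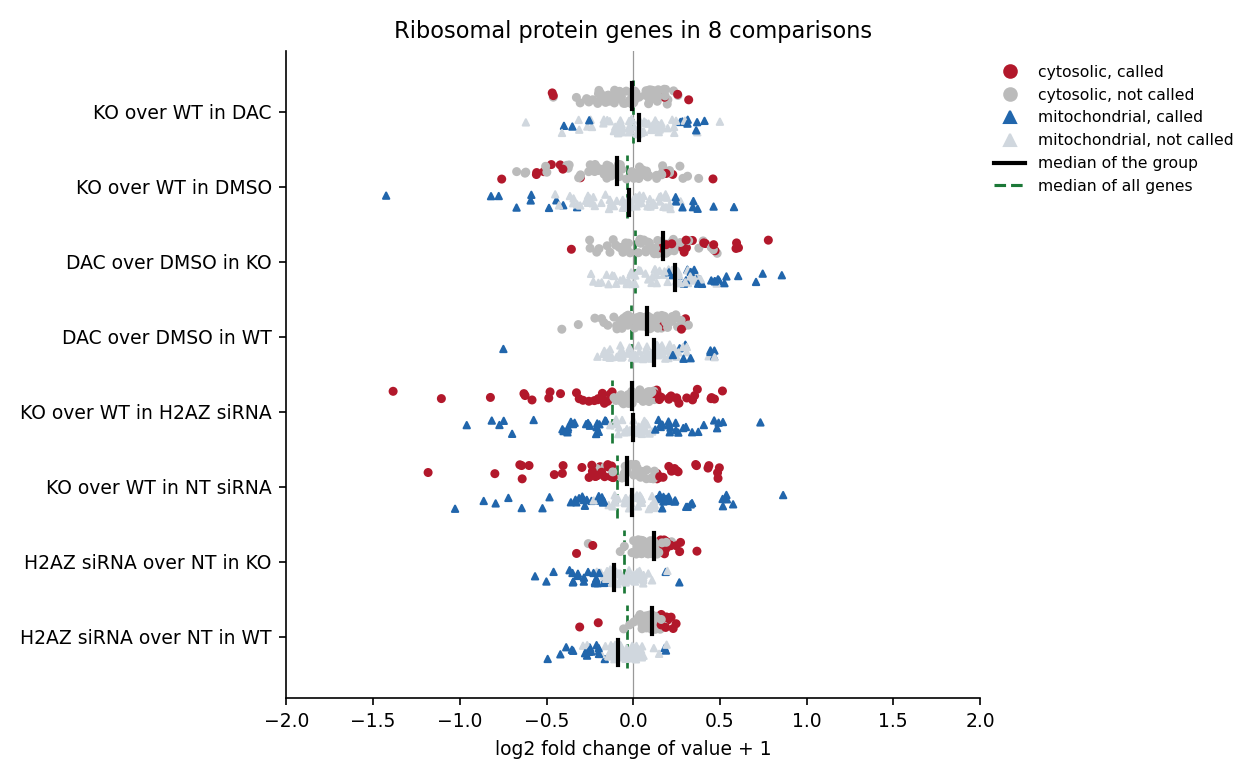
Log2 fold change (horizontal axis) of each cytosolic (circles) and mitochondrial (triangles) ribosomal protein gene in 8 comparisons, with called genes in dark colours, the family median as a black bar and the median of all genes as a dashed green line. With the H2AZ siRNA the cytosolic medians (0.12 in KO and 0.11 in WT) lie right of 0 and the mitochondrial medians (-0.11 and -0.09) left of it.

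With DAC few members were called, and the count depended on the 2 libraries that stood apart. In KO 17 of 77 were higher than with DMSO and 1 lower, where 23.7% of all genes were higher and 21.6% lower. In WT 4 were higher and 0 lower, where 14.5% of all genes were higher and 13.8% lower. The members' share called higher was just under that of all genes in KO and well below it in WT, so these counts are no result about the family. The members' median was 0.17 in KO and 0.08 in WT, beside 0.01 and -0.01 over all genes. Without KO DAC replicate 1 and WT DAC replicate 3 the counts were 51 higher and 2 lower in KO, and 48 and 0 in WT (all genes 27.8% and 24.3%, and 19.8% and 16.1%). Rps14 shows the split, with 53.7, 102 and 103 FPKM in KO DAC, 136, 132 and 51.6 FPKM in WT DAC, 81.8 and 93.6 FPKM in KO DMSO and 109 and 118 FPKM in WT DMSO. In KO cells the summed mesothelial markers were also lower with DAC (84.0 to 100 FPKM) than with DMSO (720 to 755 FPKM), and their part in this comparison was not tested.

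In KO the largest increase with DAC was that of Rps2, at 408, 513 and 495 FPKM with DAC against 269 and 278 FPKM with DMSO (log2 fold change 0.78 ± 0.17, adjusted p = 0.0049). Rps12 had 354, 428 and 429 FPKM in KO DAC against 259 and 273 FPKM in KO DMSO libraries (0.60 ± 0.13, adjusted p = 0.0049). Rps19, the gene most often mutated in human Diamond-Blackfan anaemia, had 22.2, 31.2 and 31.1 FPKM in KO DAC against 18.2 and 17.7 FPKM in KO DMSO libraries (0.61 ± 0.17, adjusted p = 0.02). In all 3 the DAC libraries were above the DMSO libraries, with KO DAC replicate 1 the lowest of them. Rplp1 rose in KO by 0.46 (adjusted p = 0.0012) and in WT by 0.28 (adjusted p = 0.025), where it had 380, 433 and 397 FPKM in WT DAC against 327 and 337 FPKM in WT DMSO libraries. Rpl27 (0.30), Rpl19 (0.30) and Rpl6 were the other members called in WT, and all 4 were also called in KO. Rpl24 fell by 0.36 in KO with DAC (adjusted p = 0.026), at 1.04, 0.901 and 1.10 FPKM in KO DAC against 1.66 and 1.50 FPKM in KO DMSO libraries. That call was lost without a filter (adjusted p = 0.054), with a replicate block (0.076), without KO DAC replicate 2 (0.074) and without KO DMSO replicate 1 (0.16) or replicate 2 (0.078), and it was not lost in the other settings that tested the gene.

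Members with a TOP tract within 5 bases of a listed start were set beside those without. With the H2AZ siRNA 9 of 27 tract members were higher and 1 lower in KO, against 10 and 0 of 30 without a tract, and the medians were 0.12 and 0.11. In WT 6 and 1 of 27 stood against 6 and 0 of 30. For KO over WT in H2AZ libraries 8 tract members were higher and 5 lower, against 6 and 11 without, and in NT libraries 7 and 5 against 7 and 13. The difference between these classes was not tested.

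Of the paralog forms of ribosomal proteins outside the rule 6 passed the filter, and all 6 of these were lower in KO with either siRNA, where 42.7% (H2AZ) and 40.4% (NT) of all genes were lower. Rpl39l, a testis-enriched copy of Rpl39, was at 0 to 0.0310 RPKM in KO and 1.44 to 2.34 RPKM in WT siRNA libraries (log2 fold change -1.34 with H2AZ and -1.65 with NT on the log2 of value plus 1 scale), while Rpl39 itself was higher in KO. Rps4l, a copy of Rps4x, had 19.7 to 21.0 RPKM in KO H2AZ against 37.3 to 38.9 RPKM in WT H2AZ libraries (-0.89 ± 0.05, adjusted p = 6.5e-08). In the DAC table it had 0.771 and 0.410 FPKM in KO DMSO against 17.7 and 19.1 FPKM in WT DMSO libraries (-3.61 ± 0.30, adjusted p = 1.9e-05), and in KO it was higher with DAC (1.72, adjusted p = 0.00095). Rps27l, a p53-responsive copy of Rps27, rose with DAC by 1.11 in KO and 0.44 in WT and with the H2AZ siRNA by 0.26 in each genotype. Fau, whose product is cut to the 40S protein Rps30, was higher in KO by 0.39 and 0.43 with the siRNAs.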

How the data were processed

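The authors deposited FPKM values for the DAC and DMSO libraries and RPKM values for the siRNA libraries, which scale reads to gene length in kilobases and to the reads of the library. Per the labels' protocols, libraries were made from total RNA with a stranded kit and sequenced as pairs. The submitters' processing notes name STAR, Bowtie2, deepTools and the mm10 build. No source used here gives tool versions, the read counter, the annotation or how reads matching several places were treated. The 31 CUT&Tag samples were not analysed here.

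The 4 groups of a table shared 1 fit in limma 3.58.1 (R 4.3.3) with an intensity trend on log2(value + 1), for genes at 1 or more in at least 2 (DAC table) or 3 (siRNA table) libraries. Fold changes are on that scale, which understates changes of low genes. P-values were adjusted by Benjamini-Hochberg over all genes of a comparison, and a gene was called at an adjusted p under 0.05. P-values measure only the spread between libraries, and separate cultures are not stated (the KO H2AZ titles say replicate, the others biological replicate). Symbols were matched for 97.8% of genes. The steps of the values gave gene lengths and library totals, and with them whole reads within 0.01 for 100% of genes above 0, which were used for shares of reads. As FPKM and RPKM are not counts, the planned limma-voom fit on these reads was dropped after a first run and is not reported. Trimmed-mean scaling was added in its place after the data were seen. The fit was tested on simulated data with 200 changed genes. For KO over WT in DAC it recovered 12.8% of 1.25-fold and 65.3% of 1.5-fold changes. For KO over WT in H2AZ it recovered 32.6% and 90.0%. The simulation gave all genes the same extra spread and held no library that stood apart. Python 3.11.15, numpy 2.4.6, pandas 2.3.3 and matplotlib 3.10.9 did the other steps.

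Members and lists were chosen with earlier results of these data known. Named members are the 5 highest and 5 lowest of a comparison, the stalk, the 5S pair, the X-linked members and Rps27a; some genes are not reported here. Same-numbered libraries of KO H2AZ and KO NT deviated together (correlations of 0.156, 0.144 and 0.270 over all genes tested). There a replicate block gave 25 members higher and 2 lower in place of 24 and 2, with the shares of all genes not given here. The correlations were 0.319, 0.109 and 0.0234 for KO NT with WT NT, and 0.0452, 0.0370 and 0.0739 for KO H2AZ with WT H2AZ. Starts and sequences come from RefSeq, GRCm38.p6, the build also named mm10, and gene positions were matched by symbol.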

Additional observations from a re-analysis of the deposited data

Results flagged for a closer look

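The response to DAC differed between KO and WT for 2 members by the interaction test of limma, where 12.4% of all genes had a higher and 11.7% a lower response in KO. For Rps26, which contacts the mRNA at the exit of the 40S subunit, the response in KO minus that in WT was 0.36 on the log2 scale (adjusted p = 0.033). It stood at 378, 405 and 376 FPKM in KO DAC, 450, 470 and 413 FPKM in WT DAC, 310 and 299 FPKM in KO DMSO and 454 and 443 FPKM in WT DMSO libraries. The KO DAC libraries were above the KO DMSO libraries, while the WT DAC and WT DMSO libraries overlapped. For Rpl10, the X-linked protein near the P site, the difference was 0.30 (adjusted p = 0.037), with 145, 148 and 145 FPKM in KO DAC, 162, 164 and 145 FPKM in WT DAC, 127 and 129 FPKM in KO DMSO and 174 and 165 FPKM in WT DMSO libraries. After median centring or trimmed-mean scaling 3 members had a higher and 1 a lower response in KO. Without a filter on low values and with a replicate block neither was called. Leaving out any 1 DMSO library, KO DAC replicate 2 or KO DAC replicate 3 also ended both calls (adjusted p = 0.051 to 0.132 for Rps26 and 0.063 to 0.137 for Rpl10), and leaving out WT DAC replicate 1 ended that of Rps26 (adjusted p = 0.055). The direction was the same in all settings run for both. In these libraries the summed mesothelial markers were 84.0 to 100 FPKM in KO DAC and 720 to 755 FPKM in KO DMSO, and their part was not tested.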

How the results depend on the processing

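Counts of members called moved most with the DAC libraries. The 2 DAC libraries left out below were picked on the members' own values. Without KO DAC replicate 1 and WT DAC replicate 3 the counts called in either direction were 23 (KO over WT in DAC), 39 (in DMSO), 53 (DAC over DMSO in KO), 48 (in WT) and 19 (difference of the DAC responses), in place of 5, 11, 18, 4 and 2. Of all genes 11.3% were then higher and 13.5% lower for KO over WT in DAC, and 23.4% and 28.2% in DMSO. For DAC over DMSO the shares were 27.8% and 24.3% in KO, 19.8% and 16.1% in WT, and 15.3% and 14.3% for the difference. The difference of the DAC responses gave 0 without a filter, 4 after median centring, 0 with a replicate block and 4 with trimmed-mean scaling. In the same order 6.36, 12.4, 9.83 and 11% of all genes were higher, and 7.26, 11.8, 10 and 12.9% lower. KO over WT in DAC gave 3 with a replicate block (all genes 8.77% and 9.19%) and 8 with trimmed-mean scaling (11.3% and 11.4%). With only the groups compared, KO over WT in DMSO gave 33 (all genes 21.9% and 25.8%) and DAC over DMSO in WT 0 (12.1% and 11.6%). H2AZ siRNA over NT in KO gave 15 without a filter and 12 with only the groups compared, in place of 26. In WT it gave 5 without a filter, 11 with only the groups compared and 6 without KO NT replicate 1 and WT NT replicate 1, in place of 17. The shares of all genes beside these siRNA counts are not given here. The planned limma-voom fit was dropped and is not reported. The filter-free fits tested more genes and the fits of the groups compared used fewer libraries; otherwise the cause was not tested.

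Leaving out 1 library gave ranges of 3 to 15 (KO over WT in DAC), 4 to 20 (in DMSO), 6 to 28 (DAC over DMSO in KO), 0 to 14 (in WT), 0 to 6 (difference), 33 to 48 (KO over WT in H2AZ), 36 to 48 (in NT), 8 to 35 (H2AZ over NT in KO), 3 to 17 (in WT) and 0 to 0 (difference). The shares of all genes called in these fits are not given here, so the ranges are no result about the family. Directions that turned were those of Rpl11 (0.24) and Rps14 (0.23) for DAC in WT without the 2 libraries. For KO over WT in H2AZ, median centring and trimmed-mean scaling turned Rpl15 (0.0208 and 0.0253) and Rpl21 (0.00707 and 0.0112). In NT they turned Rpl3 (0.00885 and 0.00513) and Rpl6 (0.00897 and 0.00526), and centring turned Rps20 (0.000232). Of 5858 values of named members under alternatives, 5196 kept direction and side of the threshold. The TOP tract was at 74.6% of members' starts when allowed within 20 bases. With the replicate block the siRNA counts were 19 higher and 22 lower (KO over WT in H2AZ), 18 and 26 (in NT), 25 and 2 (H2AZ over NT in KO) and 14 and 2 (in WT). The shares of all genes beside these replicate-block counts are not given here, so they are no result about the family. Depth limits Rpl24 most in the DAC table, where it had only 29 to 80 reads in each of the 10 libraries.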

Other observations

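Genes that build ribosomes were set beside the ribosomal proteins themselves, from lists chosen with earlier results known. Of 50 ribosome assembly factors tested, 33 were higher and 0 lower with DAC than with DMSO in KO, and 31 and 0 in WT, where 23.7% and 14.5% of all genes were higher. Their median log2 fold change was 0.40 in KO and 0.43 in WT, beside 0.17 and 0.08 for the ribosomal proteins. The nucleolar helicase Ddx21 had the largest value in both genotypes, 1.21 ± 0.05 (limma, adjusted p = 6.1e-07) in KO and 1.12 ± 0.05 (adjusted p = 6.6e-06) in WT. Nop2, an rRNA methyltransferase, rose by 0.96 in WT. In KO against WT 3 assembly factors were higher and 24 lower with H2AZ, and 2 and 33 with NT, where 42.7% and 40.4% of all genes were lower. Gnl3, a nucleolar GTPase, had log2 fold changes of -0.91 and -1.08, and Nop58, a core protein of box C/D particles, -1.11 with NT. With the H2AZ siRNA 10 were higher and 4 lower in KO and 1 and 5 in WT (all genes 6.56% and 19%, and 4.88% and 10.4%). Tsr1, a 40S maturation factor, was higher in both (0.43 and 0.22).

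Of 15 RNA polymerase I genes 1 was higher and 8 lower in KO with H2AZ and 1 and 10 with NT, where 42.7% and 40.4% of all genes were lower. With DAC 4 were higher and 1 lower in KO and 6 and 0 in WT, where 23.7% and 14.5% of all genes were higher. Of 31 other genes with TOP messages, mainly translation factors, 10 were higher and 2 lower with the H2AZ siRNA in KO and 6 and 1 in WT. Of all genes 6.56% were higher and 19% lower in KO, and 4.88% and 10.4% in WT. Hnrnpa1 was higher in KO (0.46) and the elongation factor gene Eef1b2 in WT (0.33), while the chaperonin gene Cct4 was lower in both (-0.24 and -0.22). In KO against WT 7 of these were higher and 12 lower with H2AZ, and 9 and 16 with NT (all genes 20.2% and 42.7%, and 23.7% and 40.4%), with the nucleolar chaperone Npm1 at -1.23 and -1.37. Of 20 genes of mTOR and Myc control, 6 were higher and 6 lower with the H2AZ siRNA in KO and 2 and 3 in WT, beside the same shares of all genes. Mdm2 was higher in both (0.96 and 0.59), and Rps6kb2, an S6 kinase, lower in both (-0.52 and -0.39). With DAC Myc rose by 1.18 in KO and by 1.36 in WT.

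Within the ribosome, 6 of 8 members of the small-subunit head and beak were higher with the H2AZ siRNA in KO and 3 of 8 in WT, and 2 of 8 and 0 of 8 members near the exit of the large subunit, where 31.2% and 19.5% of the family and 6.56% and 4.88% of all genes were higher. The difference between these classes was not tested. The genes outside the family whose level followed the members' mean log2 level most closely were Srebf1 (Pearson r = 0.977), Gpat4 (0.971), Mvb12a (0.967), Hmgn1 (0.967) and Sec13 (0.967) over the 10 libraries of the DAC table, and Ccm2 (0.971), Tomm20 (0.962), Gm10224 (0.948), Tpm3-rs7 (0.944) and Gm12918 (0.944) over the 12 of the siRNA table. These values share libraries, scaling and groups and carry no test. The median member had r = 0.786 and 0.591 with that mean.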
